A study of Mus musculus with 37 samples.

Results

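Cell cycle and mitosis genes are described here in the mammary gland of irradiated mice. The set was a list of 44 gene symbols for proteins of DNA replication, mitotic entry, chromosome segregation and cytokinesis. It was chosen by name, with earlier results of these data known. A gene was measured where at least 1 probe set carried its symbol alone. This gave 37 of the 44 symbols among 18820 measured genes. Of these, 31 had a mean above the low-value filter (log2 4.04 over all arrays) and were tested with 13174 genes in all. Ccnb1, Ccne2, Foxm1, Kif20a, Nusap1, Tyms and Ube2c were not analysed here. Birc5, Cenpe, Kif4, Melk, Ncapg and Ttk were measured below the filter and got no adjusted p.

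The samples were total RNA of whole mammary tissue from female BALB/c mice, with 1 array for each of 37 samples. All mice had the inguinal gland of the other side cleared earlier, and all were exposed at an age of 10 weeks. The 4 treatments were sham irradiation, 100 cGy of sparsely ionizing gamma rays, and 10 cGy or 30 cGy of densely ionizing silicon ions of 350 MeV/amu (Si). Glands were taken at 1, 4 and 12 weeks, which made 12 groups of 3 arrays, except 4 in the sham group of week 4. Week 1 glands were collected at the irradiation site and later ones after the mice had been moved back, so time, age and site cannot be told apart. The labels do not say whether replicates are separate animals, so a p-value reflects only how far these samples vary, and that variation may be technical.

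A cell that commits to division loads the MCM helicase onto replication origins with the help of Cdc6, and the helicase fires when Cdc45 joins it. Cyclin E opens S phase, while cyclin A and cyclin B with the kinase Cdk1 carry the cell through S phase into mitosis. Aurora and Polo kinases, kinetochore proteins and motors then align the chromosomes, the spindle checkpoint holds back Cdc20 until they are attached, and anillin, Ect2 and Prc1 take part in dividing the cell. E2F factors act on many replication genes, and the CCAAT box and the cell cycle homology region are known elements of many mitotic promoters. In the adult virgin gland few cells divide, and their number follows ovarian hormones. In bulk tissue, fewer cells of a type and less RNA per cell cannot be told apart.

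Array medians lay between 5.04 and 5.25 on the deposited log2 scale, and the arrays correlated with each other at 0.896 to 0.990. Replicate 3 of sham week 1 and replicate 1 of sham week 4 were least like the rest, with a median correlation of 0.932 and 0.946 with the other arrays, and the main counts and medians that use them are also given without them where they move. Markers of mammary epithelium were present: 19 of 20 luminal markers and 16 of 16 basal markers were measured, with 19 and 15 above the filter. Immune and muscle markers were present too, and the mean deviation of the 18 skeletal muscle markers ranged from -2.33 to 3.03 within sham week 4 alone.

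RefSeq promoter windows (250 bases before to 50 after a start, GRCm38.p6) were found for 37 of the 44 symbols, in 40 windows. Each window was searched on both strands for CCAAT, for the cell cycle homology region as TTTGAA or TTTAAA, and for E2F sites as TTTCCCGC, TTTGGCGC, TTTGCCGC or TTTCGCGC. CCAAT stood in 80% of the members' windows and in 37.4% of all 32851 windows. A cell cycle homology region stood in 72.5% of the members' windows and 27.6% of all, and an E2F site in 20% and 2.26%. CCAAT and the cell cycle homology region occurred together in 65% of the members' windows and in 10.7% of all. E2F sites were in 5 of the 7 licensing and helicase genes that had a window, and in 0 of the 3 G1/S and nucleotide genes. They were in 3 of the 27 genes of the 6 later role groups. CCAAT was in 6 of those 7, 1 of those 3 and 22 of those 27 genes. A cell cycle homology region was in 3, 2 and 22 of them. The role groups were not tested against each other for motifs. A match describes these letters and is not a measured site.

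Promoters of 4 members are printed because these members, among those with a window, had the smallest p in the comparison that most members led, 30 cGy Si against sham at week 4. Each is the 250 bases before 1 RefSeq start, 5′ to 3′ on the gene's strand, and capitals mark the motifs named above. Mcm6, a subunit of the replicative helicase, lies at chr1:128359706-128359955 (minus strand). Cenpm, a kinetochore protein, lies at chr15:82244337-82244586 (minus strand). Prc1, which bundles microtubules of the central spindle, lies at chr7:80294201-80294450 (plus strand), and anillin, the scaffold of the contractile ring, at chr9:22389207-22389456 (minus strand).
Mcm6: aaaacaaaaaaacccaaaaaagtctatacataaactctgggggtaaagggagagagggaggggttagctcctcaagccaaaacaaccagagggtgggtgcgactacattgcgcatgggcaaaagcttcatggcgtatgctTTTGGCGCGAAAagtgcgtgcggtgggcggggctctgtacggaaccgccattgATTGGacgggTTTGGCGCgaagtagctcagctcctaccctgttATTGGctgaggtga
Cenpm: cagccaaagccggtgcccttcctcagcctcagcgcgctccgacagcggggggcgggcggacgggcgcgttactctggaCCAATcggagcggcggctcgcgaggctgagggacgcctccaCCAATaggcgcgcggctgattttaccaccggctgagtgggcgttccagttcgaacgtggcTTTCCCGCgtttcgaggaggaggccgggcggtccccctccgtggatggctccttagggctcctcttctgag
Prc1: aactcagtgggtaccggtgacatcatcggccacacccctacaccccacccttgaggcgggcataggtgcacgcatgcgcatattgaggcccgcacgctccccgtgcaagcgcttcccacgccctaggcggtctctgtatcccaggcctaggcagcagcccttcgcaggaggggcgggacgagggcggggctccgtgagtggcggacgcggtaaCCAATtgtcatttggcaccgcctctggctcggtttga
Anln: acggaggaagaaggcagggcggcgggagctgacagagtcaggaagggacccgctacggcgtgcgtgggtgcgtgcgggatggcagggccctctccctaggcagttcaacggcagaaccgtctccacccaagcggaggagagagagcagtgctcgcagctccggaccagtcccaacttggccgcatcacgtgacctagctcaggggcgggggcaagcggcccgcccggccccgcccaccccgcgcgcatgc
The Mcm6 stretch held 2 CCAAT motifs on the other strand, the first printed 57 bases before the start, and 3 E2F sites, 2 of which overlap. Cenpm held 2 CCAAT motifs and 1 E2F site, and Prc1 held 1 CCAAT motif, 37 bases before the start. No motif lay in the printed Anln stretch. For Prc1 and Anln a cell cycle homology region was also found in a full window of the gene, but not wholly within the printed bases.

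The 31 members moved together from array to array. With group means removed (25 residual degrees of freedom), the correlation between 2 members had a median of 0.711 over 465 pairs (Spearman 0.661), and 99.8% of pairs lay above 0. Over all pairs of tested genes the median was 0.015, with 52.2% above 0. The median was 0.629 without replicate 1 of sham week 12 and replicate 1 of 10 cGy Si week 12, the arrays with the highest and lowest levels. These pairs share the same arrays and are a description.

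Top2a, the topoisomerase that untangles replicated chromosomes, followed the mean of the other members most closely (r = 0.956), with Ccna2, cyclin A2, at 0.955 and Ect2, a gene of cytokinesis, at 0.947. Mki67, the common marker of dividing cells, reached 0.938 and Aurkb, the kinase of the chromosomal passenger complex, 0.935. The lowest 5 were genes that act before or at the start of S phase, although Rrm2, of nucleotide supply, reached 0.934. Cdc45, the helicase activator, had r = 0.278, Ccne1, cyclin E1, 0.509, Cdc6, the loading factor, 0.586, and the helicase subunits Mcm3 and Mcm7 0.625 and 0.672. Some members had several probe sets. The first 2 of Prc1 correlated at -0.06, those of Kif11, a spindle motor, at 0.22. Those of Mad2l1, a checkpoint protein, correlated at 0.398 and those of Top2a at 0.545. The second probe sets of Prc1, Kif11 and Top2a had low means, of 2.58, 2.77 and 2.52, below the filter. That of Mad2l1 had a mean of 5.06.

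A level was computed for each array by subtracting each member's mean over the 37 arrays and averaging the 31 results (log2). At week 4 the 30 cGy Si arrays stood at 0.495, 0.702 and 0.475, and the sham arrays at -0.533, -0.237, -0.106 and 0.051. Gamma arrays stood at -0.081, -0.005 and -0.088, and 10 cGy Si arrays at -0.067, 0.107 and -0.400. All 3 arrays of 30 cGy Si lay above the other 10 arrays of week 4, and ranked 6, 2 and 7 of 37.

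At week 1 the 12 arrays lay between -0.419 and 0.360, the highest being replicate 3 of sham, with a pooled SD within groups of 0.245. At week 4 the SD within groups was 0.198. At week 12 the groups spread wider, from -0.557 to 0.952 with an SD within groups of 0.555. The sham arrays of week 12 stood at 0.952, -0.334 and -0.053, gamma at -0.347, 0.540 and 0.144, 10 cGy Si at -0.557, 0.575 and 0.544, and 30 cGy Si at 0.134, -0.373 and 0.421. Each group of week 12 held arrays on both sides of 0, and the highest and the lowest array of all 37 were in this week, in sham and in 10 cGy Si.

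**Figure D1:**
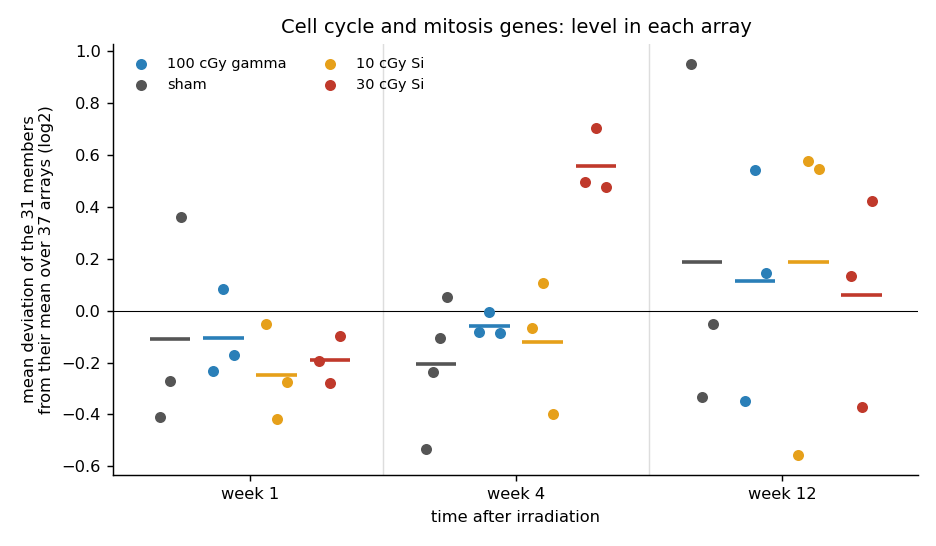
Average over the 31 members of their deviation from each gene's mean (log2, vertical axis) in each array (points), by week and treatment, with group means as lines. The 30 cGy Si arrays of week 4 lie from 0.475 to 0.702, above the other arrays of that week, and week 12 runs from -0.557 to 0.952.

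**Figure D2:**
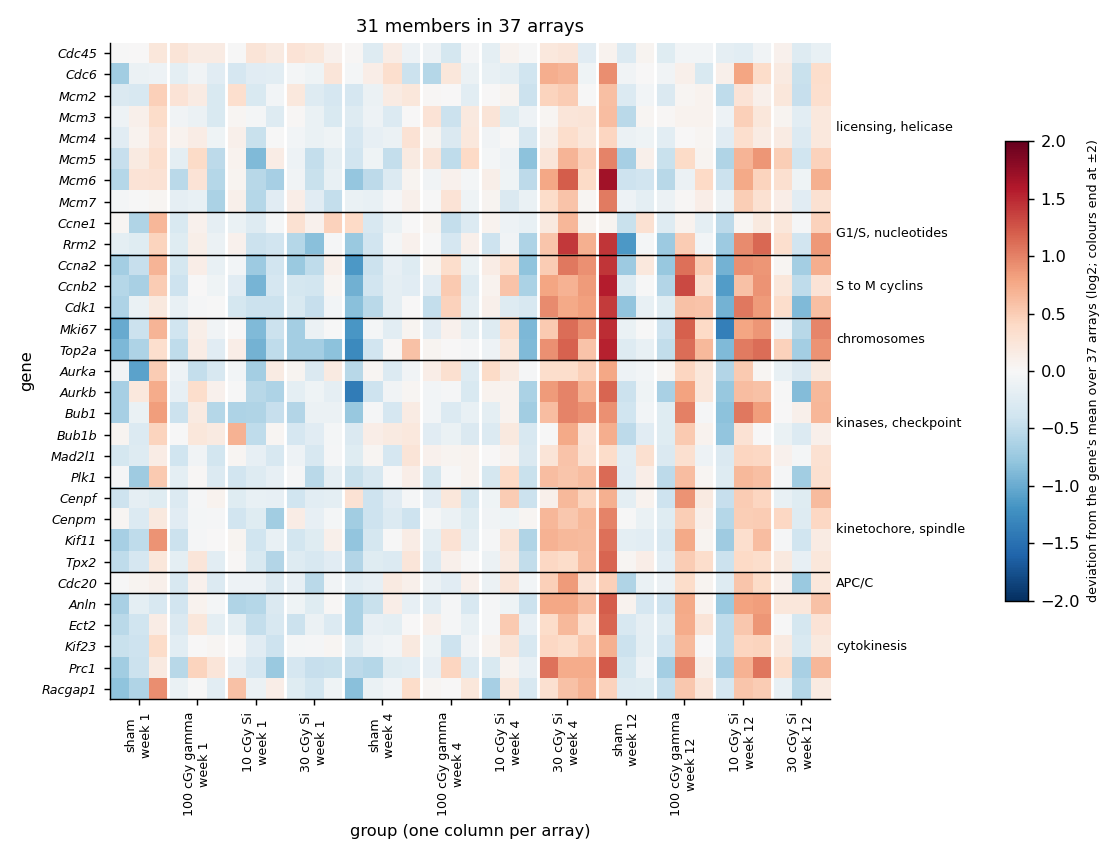
Deviation of each of the 31 members (rows, in role groups) from its own mean over 37 arrays (log2, colour) in every array (columns, in groups). Columns are red or blue over most rows together, and Cdc45 at the top follows them least (r = 0.278).

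At week 4, 30 cGy Si was compared with sham. All 31 members were higher in the 30 cGy Si group, as were all 37 measured ones, with a median difference of 0.70 (log2) against 0.03 over all 13174 genes, of which 56.7% were higher. No member passed an adjusted p of 0.05 in limma, nor did any gene (0%), and the smallest adjusted p of a member was 0.168. At an unadjusted p under 0.05, 20 of the 31 (64.5%) were higher and 0 lower, against 6.10% of all genes that were higher. In 21 of the 31 (67.7%) every 30 cGy Si array lay above every sham array, against 6.19% of all genes. As the list was chosen with earlier results of these data known, these shares are a description.

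By role, both chromosome genes, all 3 S to M genes, 5 of 6 kinase and checkpoint genes, 4 of 5 cytokinesis genes and 3 of 4 kinetochore and motor genes were higher at an unadjusted p under 0.05. Of the 8 licensing and helicase genes only Mcm6 was, and the median of that group was 0.36 against 1.23 for the S to M genes (Ccna2, Ccnb2 and Cdk1). The S to M median was the highest of the role groups. Of the 2 G1/S and nucleotide genes 1 was, with a median of 0.74, and Cdc20, alone in its group, was too, at 0.56. The difference between these role groups was not tested. The smallest differences belonged to Cdc45 at 0.13 ± 0.12 (SE), Bub1b at 0.29 ± 0.27, Mcm4 at 0.32 ± 0.17, Ccne1 at 0.33 ± 0.23, Mcm2 at 0.33 ± 0.24 and Mcm3 at 0.33 ± 0.19. Each SE in this report uses a spread per gene pooled over the groups of all weeks, not that of the arrays compared.

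Mcm6, of the replicative helicase, read 6.56, 7.0 and 6.18 in the 30 cGy Si arrays of week 4 and 5.01, 5.27, 5.52 and 5.84 in sham. The groups did not overlap, and Mcm6 was higher by 1.17 ± 0.37 (SE), a 2.25-fold difference (adjusted p = 0.482 in limma). Ccne1 read 5.90, 6.37 and 5.76 against 6.09, 5.38, 5.56 and 5.70 in sham, so its groups overlapped. Rrm2, the ribonucleotide reductase subunit that limits deoxynucleotide supply, read 5.96, 6.83 and 6.12 against 4.67, 5.03, 5.37 and 5.50. Its groups were apart by 1.16 ± 0.43 (adjusted p = 0.523).

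Cdk1, the kinase that drives mitotic entry, read 6.48, 6.29 and 6.36 in 30 cGy Si and 4.69, 4.997, 5.35 and 5.54 in sham, a difference of 1.23 ± 0.41 (adjusted p = 0.482). Ccna2 read 6.25, 6.79 and 6.65 against 4.58, 5.30, 5.57 and 5.48, and had the largest difference of all members, 1.33 ± 0.47 (adjusted p = 0.503). Neither gene had overlapping groups, and the 30 cGy Si arrays of Cdk1 lay close together while its sham arrays were spread. Mki67 read 6.41, 7.0 and 6.79 against 4.72, 5.85, 5.68 and 5.94, higher by 1.19 ± 0.49 (adjusted p = 0.57) and without overlap. Top2a read 5.85, 6.12 and 5.52 against 3.67, 4.56, 4.96 and 5.52, so that its lowest 30 cGy Si array and highest sham array met.

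Aurkb read 6.74, 6.88 and 6.57 in 30 cGy Si and 4.49, 5.47, 5.81 and 5.92 in sham, higher by 1.31 ± 0.41 (adjusted p = 0.477). Bub1, a checkpoint kinase at the kinetochore, read 4.80, 5.17 and 5.11 against 3.43, 4.16, 3.85 and 4.35, higher by 1.08 ± 0.37 (adjusted p = 0.499). The groups of both genes were apart, and replicate 1 was the lowest sham array in each. Cenpm had the smallest p of all members. It read 6.06, 5.93 and 6.05 against 4.70, 4.97, 5.12 and 4.98, a difference of 1.07 ± 0.23 or 2.1-fold (adjusted p = 0.168 in limma), and its lowest 30 cGy Si array lay far above its highest sham array.

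Among cytokinesis genes, Prc1 read 5.41, 5.07 and 5.07 in 30 cGy Si and 3.81, 3.75, 4.08 and 4.12 in sham, higher by 1.25 ± 0.38 (adjusted p = 0.477). Anln read 6.34, 6.35 and 6.20 against 4.95, 5.13, 5.71 and 5.41, higher by 1.00 ± 0.31 (adjusted p = 0.477). Neither gene had overlapping groups. Cdc20, the activator of the anaphase-promoting complex, differed by 0.56 ± 0.22 and Kif11 by 0.91 ± 0.35. Of the members below the filter, Ncapg, a condensin subunit, differed by 0.78 ± 0.29 and Birc5, survivin, by 0.41 ± 0.19.

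**Figure D3:**
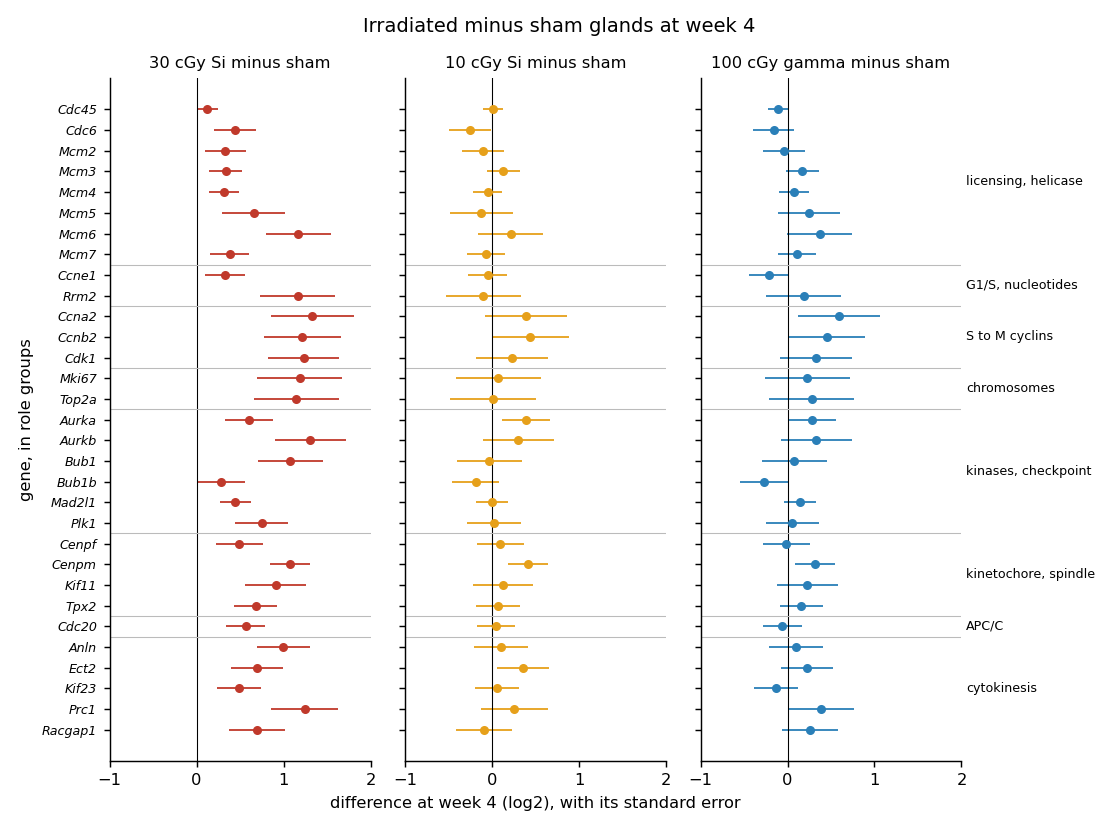
Difference of each member from sham at week 4 (log2, horizontal axis, with its standard error) for 30 cGy Si, 10 cGy Si and 100 cGy gamma, in role groups (vertical axis). All 31 points lie above 0 for 30 cGy Si, with a median of 0.70, against 20 for 10 cGy Si and 23 for gamma.

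The count of 20 fell to 12 without replicate 2 of 30 cGy Si and to 13 without replicate 1 of sham. Without the 2 arrays least like the rest it was 17, with a median difference of 0.59. Other markers moved beside the members in this comparison. All 19 luminal markers were higher, by a median of 0.38 (levels 0.130 to 0.304 in 30 cGy Si and -0.441 to -0.052 in sham), as were all 15 basal markers, by 0.35 (0.074 to 0.185 and -0.836 to 0.002). With the luminal, T and NK cell, skeletal muscle and brown adipocyte levels as covariates, 22 members were higher at an unadjusted p under 0.05, with a median of 0.74. In that fit 7.93% of all genes had such a p in either direction. Basal, macrophage and ovarian hormone target levels were not covariates, and the part of the tissue mix as a whole was not tested. Of 8 ovarian hormone targets tested, 7 were higher, by a median of 0.26 (0.062 to 0.142 against -0.166 to -0.056), and their part in the result was not tested. All 16 T and NK cell markers were lower, by a median of -0.82, and all 15 B cell markers, by -0.82, but the groups overlapped (B cells -1.36 to 1.22 and -1.37 to 2.17). Of the 12 macrophage markers 11 were higher, by 0.33 (-0.113 to 0.605 and -0.379 to 0.238), and their part was not tested.

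Other genes of the cycle are given by list, beside 56.7% of all genes that were higher and 6.10% that were so at an unadjusted p under 0.05. The lists were not tested against each other, and they too were chosen with earlier results of these data known. The other replication genes did not have a lower median than the other mitosis genes, unlike the licensing genes beside the S to M genes above. Of 30 other replication genes tested, 28 were higher and 14 were so at an unadjusted p under 0.05, with a median of 0.38. They included Tk1, thymidine kinase, at 0.78 ± 0.23, Chaf1b, a chromatin assembly factor, at 0.76 ± 0.25, and Tipin, of the fork protection complex, at 0.60 ± 0.20. Of 41 other mitosis genes, 37 were higher and 14 at an unadjusted p under 0.05, with a median of 0.35. Knl1, a kinetochore scaffold, differed by 0.97 ± 0.33, Ccnf, cyclin F, by 0.67 ± 0.22 and Cenpn by 0.59 ± 0.20. Of 23 G1 cyclin, kinase and E2F-RB genes, 14 were higher and 5 at an unadjusted p under 0.05, with a median of 0.02. Ccnd1, cyclin D1, differed by 0.81 ± 0.26, Myc by 0.71 ± 0.23 and Cdk6 by 0.40 ± 0.15. Of 14 inhibitors, 2 were higher and 1 lower at that p, Gadd45g at 0.93 ± 0.39, Fzr1 at 0.27 ± 0.10 and Ccng1, a p53 target, at -0.40 ± 0.14. No gene of these lists passed an adjusted p of 0.05.

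The level of 4 members in the other irradiated glands of week 4 is given here for comparison. Cenpm read 5.35, 5.27 and 5.15 in gamma arrays and 5.33, 5.31 and 5.43 in 10 cGy Si arrays, all above the 4 sham arrays and all below the 30 cGy Si arrays. Cdk1 read 5.06, 5.99 and 5.36 in gamma and 5.64, 5.27 and 5.21 in 10 cGy Si. Prc1 read 4.16, 4.76 and 4.05 in gamma and 4.02, 4.39 and 4.16 in 10 cGy Si. In both genes the gamma and 10 cGy Si arrays overlapped those of sham, and none reached the lowest 30 cGy Si array. Mki67 read 5.66, 5.98 and 5.69 in gamma and 5.63, 6.24 and 4.99 in 10 cGy Si, again overlapping sham and below 30 cGy Si.

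The members were also higher in 30 cGy Si than in the other irradiated glands of week 4. Against gamma all 31 were higher, by a median of 0.62, and 0 passed the adjusted test in limma (background 0.00759%). At an unadjusted p under 0.05, 12 (38.7%) were higher, against 3.95% of all genes, and 23 (74.2%) did not overlap, against 8.75%. Cenpm differed by 0.76 ± 0.25, Anln by 0.90 ± 0.33 and Cdc20 by 0.62 ± 0.24, and the smallest adjusted p was 0.488. Bub1 differed by 1.00 ± 0.40, Cdc6 by 0.60 ± 0.26 and Kif23, a motor of the central spindle, by 0.62 ± 0.27. The count fell to 6 without replicate 1 of gamma and to 3 without replicate 2 of 30 cGy Si.

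Against 10 cGy Si all 31 were higher too, by a median of 0.69, and 0 passed the adjusted test (background 0.0152%). At an unadjusted p under 0.05, 17 (54.8%) were higher, against 2.02% of all genes, and 22 (71.0%) did not overlap, against 6.41%. Bub1 differed by 1.11 ± 0.40, Rrm2 by 1.26 ± 0.46, Anln by 0.90 ± 0.33, Cdc6 by 0.69 ± 0.26, Cenpm by 0.66 ± 0.25 and Prc1 by 0.99 ± 0.41, each with an adjusted p of 1. The count was 11 without replicate 1 of 30 cGy Si, 6 without its replicate 2, and 11 and 5 without replicates 1 and 3 of 10 cGy Si. These 3 comparisons share the 30 cGy Si arrays, and their counts do not support each other.

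**Figure D4:**
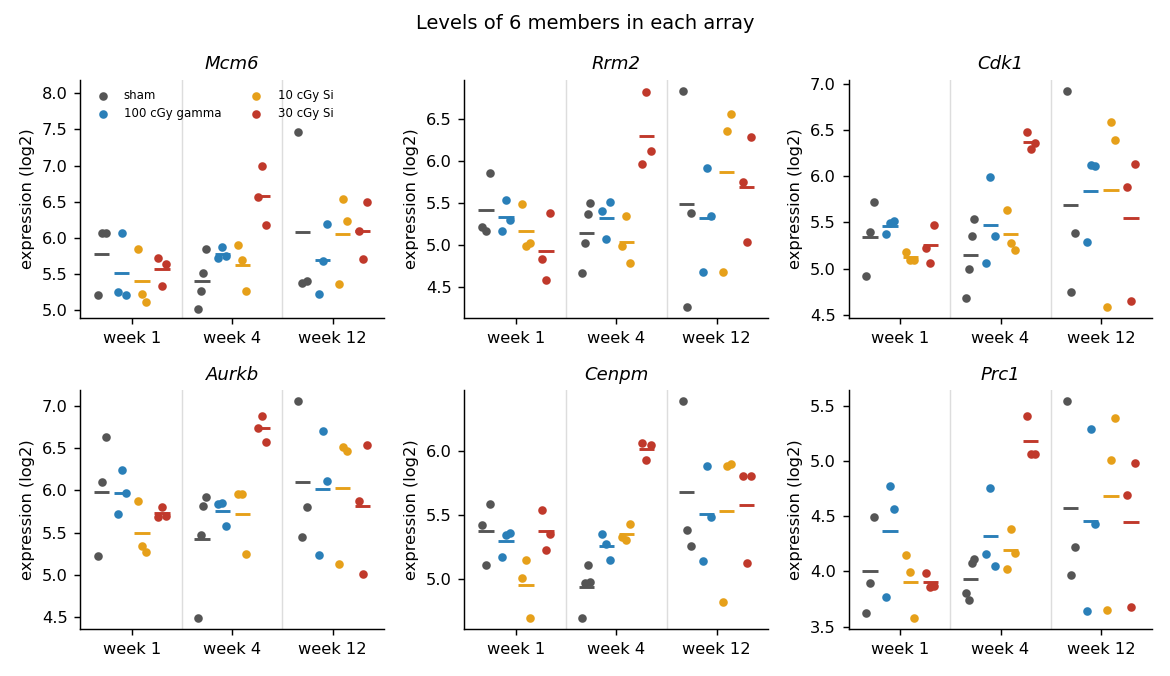
Level of 6 members in each array (log2, vertical axis; points), by week and treatment (colours), with group means as lines. In each panel the 3 arrays of 30 cGy Si lie above all sham, gamma and 10 cGy Si arrays of week 4, and week 12 arrays of a treatment lie far apart.

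In the other weeks and treatments no member passed an unadjusted p of 0.05. At week 1 the median difference from sham was 0.03 for gamma, -0.09 for 30 cGy Si and -0.15 for 10 cGy Si. Without replicate 3 of sham week 1 these medians were 0.25, 0.14 and 0.13, so both Si medians turned sign, and 0, 1 and 1 members had an unadjusted p under 0.05. With all arrays no member passed an adjusted p of 0.05, against 0.0228%, 0.0228% and 0.0835% of all genes, and none passed an unadjusted p of 0.05, against 7.82%, 12.0% and 5.40%. At week 4 the medians were 0.17 for gamma and 0.06 for 10 cGy Si, with 0 members at an unadjusted p under 0.05, against 5.56% and 3.17%. Without replicate 1 of sham week 4 they were 0.03 and -0.02. At week 12 they were -0.08, -0.12 and -0.01 for gamma, 30 cGy Si and 10 cGy Si, again with 0 members, against 2.82%, 5.28% and 4.70%. No gene passed an adjusted p of 0.05 in these comparisons of weeks 4 and 12 (0%). The wide spread of week 12 limits what that week can show. Leaving out replicate 1 of sham week 12 turned the median to 0.31 for gamma, 0.23 for 30 cGy Si and 0.41 for 10 cGy Si.

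The 30 cGy Si group was set against the other irradiated groups at weeks 1 and 12 too. No member passed an unadjusted p of 0.05 against gamma at week 1 (background 4.43%) or week 12 (4.63%), or against 10 cGy Si at week 1 (6.48%) or week 12 (3.84%). At an adjusted p of 0.05 the backgrounds were 0%, 0%, 0.0531% and 0%. The median against 10 cGy Si at week 12 was -0.13, and -0.55 without replicate 1 of 10 cGy Si.

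Single genes are followed here over the 3 weeks. Each SE uses a spread per gene pooled over all 12 groups. The SD within groups of the members' level was 0.198 at week 4 and 0.555 at week 12. An SE may thus be too large for the arrays of week 4 and too small for those of week 12. Mki67 differed from sham by 0.13 ± 0.52, 0.23 ± 0.49 and -0.05 ± 0.52 in gamma glands of weeks 1, 4 and 12. In 10 cGy Si glands it differed by -0.19 ± 0.52, 0.07 ± 0.49 and -0.35 ± 0.52, and in 30 cGy Si glands by -0.02 ± 0.52, 1.19 ± 0.49 and -0.34 ± 0.52. Mcm6 in 30 cGy Si glands differed by -0.22 ± 0.40, 1.17 ± 0.37 and 0.02 ± 0.40, and Aurkb by -0.26 ± 0.44, 1.31 ± 0.41 and -0.29 ± 0.44. Ccne1 differed by 0.24 ± 0.24, 0.33 ± 0.23 and 0.25 ± 0.24. Top2a in 30 cGy Si glands differed by -0.33 ± 0.52, 1.15 ± 0.49 and -0.15 ± 0.52, Cdk1 by -0.09 ± 0.44, 1.23 ± 0.41 and -0.13 ± 0.44, and Mcm2 by -0.09 ± 0.26, 0.33 ± 0.24 and -0.06 ± 0.26. The 30 cGy Si difference of week 4 was the largest of the 3 weeks in each of them, and in Ccne1 the weeks lay within a standard error of each other.

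Over the mean of the 3 weeks, 30 cGy Si differed from sham by a median of 0.17, with 0 members past an adjusted p of 0.05 (background 0.0304%) and 2 (6.45%) higher at an unadjusted p under 0.05 (background 10.2%). These were Anln at 0.44 ± 0.19 and Cenpm at 0.33 ± 0.14. The count was 8, with a median of 0.29, without replicate 1 of sham week 12. It was 0 without replicate 2 of sham or replicate 3 of 30 cGy Si at week 12. The medians for gamma and 10 cGy Si were 0.01 and -0.03, with 0 members at an unadjusted p under 0.05 against 5.36% and 6.71%, and no gene at the adjusted p. The 30 cGy Si share was below the background, as were the others.

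The difference between weeks was tested directly. The effect of 30 cGy Si was larger at week 4 than at week 1 in all 31 members, by a median of 0.78. Of these, 0 passed the adjusted test (background 0%) and 12 (38.7%) had an unadjusted p under 0.05, against 4.16% of all genes. Rrm2 differed by 1.64 ± 0.63, Aurkb by 1.57 ± 0.60, Mcm6 by 1.39 ± 0.55, Bub1 by 1.36 ± 0.55, Cenpm by 1.07 ± 0.34 and Cdc20 by 0.87 ± 0.32, each with an adjusted p of 0.546. The count fell to 7 without replicate 2 of 30 cGy Si at week 1. It was also 7 without replicate 2 of 30 cGy Si or replicate 1 of sham at week 4. Without replicate 3 of sham at week 1 it was 4. Without both arrays least like the rest it was 2, with a median of 0.52. In that last fit 9.48% of all genes had an unadjusted p under 0.05 in either direction, above the share of the members.

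The effect of 30 cGy Si was smaller at week 12 than at week 4 in all 31 members, by a median of -0.94. Of these, 0 passed the adjusted test (background 0%) and 14 (45.2%) had an unadjusted p under 0.05, against 3.39%. Ccnb2, cyclin B2, differed by -1.65 ± 0.65, Aurkb by -1.60 ± 0.60, Prc1 by -1.37 ± 0.56, Plk1, the Polo kinase of mitosis, by -1.23 ± 0.45, Cenpm by -1.17 ± 0.34 and Tpx2, a spindle assembly factor, by -1.04 ± 0.36, each with an adjusted p of 0.915. This count changed with single arrays of weeks 4 and 12. It was 1, with a median of -0.47, without replicate 1 of sham week 12. It was 3 without replicate 2 of 30 cGy Si week 12, 22 without replicate 2 of sham week 12, 9 without replicate 2 of 30 cGy Si week 4, and 6 without replicate 1 of sham week 4. Without the 2 arrays least like the rest it was 8. The 2 tests share the week 4 arrays.

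For 10 cGy Si only Cenpm had an unadjusted p under 0.05 between weeks 4 and 1, at 0.84 ± 0.34 (1 of 31 against 2.03% of all genes), and 0 members between weeks 12 and 4 (3.26%). For gamma 0 members did in either (9.12% and 3.90%). No gene passed the adjusted test in these 4 differences (0%).

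Week by week, some members rose from week 1 to week 12 across the 4 treatments. Of the 31, 9 (29.0%) were higher at an adjusted p under 0.05, against 15.2% of all genes, and 1 was lower, against 20.4%. Anln rose by 0.54 ± 0.17 (SE, adjusted p = 0.0106 in limma). Top2a rose by 0.80 ± 0.26 (adjusted p = 0.0174), Tpx2 by 0.42 ± 0.13 (adjusted p = 0.0146) and Mad2l1 by 0.29 ± 0.10 (adjusted p = 0.0189). Mcm7, Ect2, Bub1, Cenpm and Cdc6 rose by 0.32 to 0.53, with adjusted p from 0.0322 to 0.0428.

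The exception was Cdc45, which fell by 0.26 ± 0.06 (adjusted p = 0.0024). Cdc45 ran from 5.28 to 5.56 (median 5.46) over the 12 arrays of week 1, from 4.94 to 5.53 (5.26) over the 13 of week 4, and from 5.02 to 5.38 (5.18) over the 12 of week 12. Its ranges were narrow and overlapped. Top2a ran from 4.00 to 5.29 (median 4.38) at week 1 and from 4.06 to 6.48 (5.50) at week 12, so that its lowest arrays were alike and its highest were not. Mad2l1 ran from 6.09 to 6.64 (median 6.29) at week 1 and from 6.20 to 6.92 (6.69) at week 12.

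The number of members called between weeks 12 and 1, 10 in both directions, depended on single arrays. The share of all genes called was not taken in these fits. It was 5 without replicate 3 of 30 cGy Si, replicate 2 of 10 cGy Si or replicate 1 of sham at week 12, and 16 without replicate 1 of 10 cGy Si at week 12. It was 6 without replicate 1 or 3 of gamma, replicate 2 of 10 cGy Si or replicate 1 of sham at week 1, and 6 without replicate 2 of gamma or replicate 3 of 10 cGy Si at week 12. Anln, Top2a, Tpx2, Mad2l1 and Cdc45 kept their calls in each of the 24 fits without 1 array, while Bub1, Cdc6, Cenpm, Ect2 and Mcm7 lost theirs in 7 to 15 of them. With the tissue covariates the adjusted p in limma was 0.0548 for Cdc45, 0.055 for Ect2, 0.111 for Mcm7 and 0.138 for Cdc6. With the mean of its probe sets Mad2l1 had 0.0668. Bub1, Cdc6 and Cenpm also lost their calls with no filter and with quantile normalisation. Cenpm lost its call with the replicate block. Bub1, Cenpm, Ect2 and Mcm7 lost theirs when only the arrays compared were fitted.

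Between weeks 4 and 1, 1 member was higher (background 11.0%) and 1 lower (14.8%) at an adjusted p under 0.05. Mad2l1 rose by 0.26 ± 0.10 (adjusted p = 0.0421) and Cdc45 fell by 0.20 ± 0.06 (adjusted p = 0.0213). The call of Mad2l1 was lost in 16 of the 25 fits without 1 array, and that of Cdc45 without replicate 3 of 30 cGy Si at week 4 and with the tissue covariates (adjusted p = 0.119). No member was called between weeks 12 and 4 (background 1.64%), where 0 also had an unadjusted p under 0.05.

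**Figure D5:**
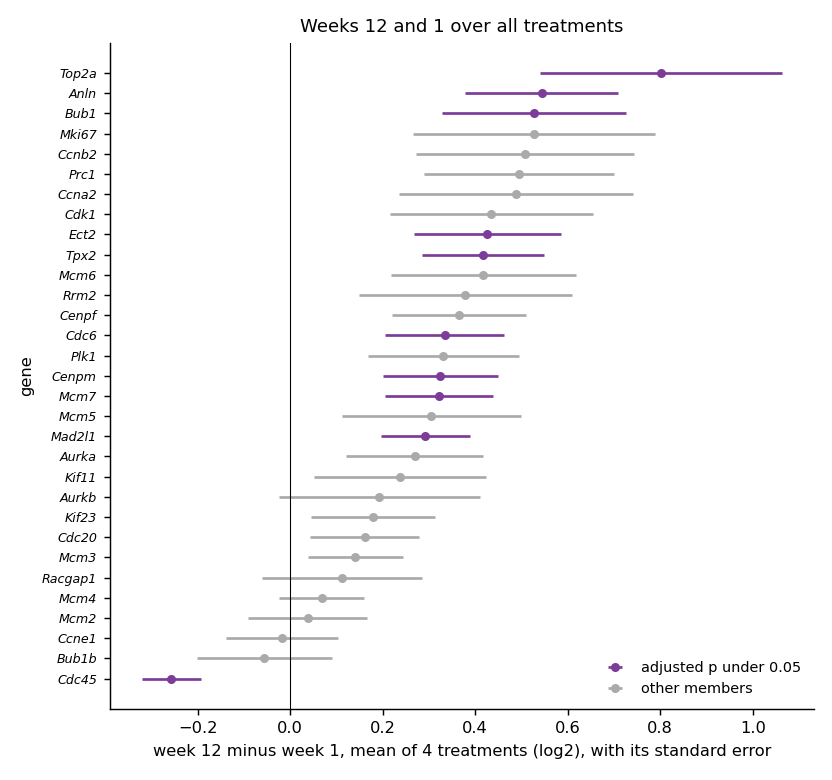
Difference between week 12 and week 1 over the mean of the 4 treatments (log2, horizontal axis, with its standard error) for the 31 members (vertical axis), with those at an adjusted p under 0.05 in purple. The 9 called higher run from 0.29 to 0.80, and Cdc45, at -0.26, is the 1 called lower.

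Sham glands alone gave no call among the members. Between weeks 4 and 1 the background was 5.88% at an adjusted p of 0.05 and 20.7% at an unadjusted p of 0.05, and 0 members passed either. Between weeks 12 and 1 it was 5.12% at the adjusted p, with 0 members, while 3 members were higher at an unadjusted p under 0.05 against 8.58%, with a median of 0.30. Between weeks 12 and 4 no gene was called (0%), and 2 members, Cenpm at 0.74 ± 0.23 and Tpx2 at 0.66 ± 0.25, were higher at an unadjusted p under 0.05 against 3.53%, with a median of 0.39. Without replicate 3 of sham week 1 the first count was 7 and its median 0.49, and without both arrays least like the rest it was 8. It was 7 with array weights and 5 with the tissue covariates, 6 without replicate 2 of sham week 12, and 0 without replicate 1 of sham at week 1 or week 12. It was also 0 with a filter at the 50th percentile, which kept 9 members, and 0 when only the arrays compared were fitted. The second count was 13 without replicate 2 of sham week 12, 6 without its replicate 3, 0 without its replicate 1 and 5 with the tissue covariates. With that filter it was 0, and with only the arrays compared it was 1. Both medians changed most without replicate 1 of sham week 12, the array with the highest level of the members: they were then -0.11 and -0.005.

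Between weeks 12 and 1 over all treatments the other lists are given beside the 15.2% of all genes that rose and the 20.4% that fell. Of 30 other replication genes, 7 rose and 2 fell at an adjusted p under 0.05 in limma. Prim1, the primase, rose by 0.64 ± 0.15, Gins1 by 0.41 ± 0.11 and Pcna, the sliding clamp, by 0.33 ± 0.08. Of 41 other mitosis genes, 11 rose and 2 fell. Cks2 and Cks1b, small partners of Cdk1, rose by 0.74 ± 0.14 and 0.46 ± 0.10, and Kif18a, a kinesin that dampens chromosome movement, rose by 0.46 ± 0.11.

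Genes of G1 and inhibitors stand beside the same shares. Of 23 G1 cyclin, kinase and E2F-RB genes, 3 rose and 5 fell. Ccnd3, cyclin D3, fell by 0.76 ± 0.05 and E2f4 by 0.53 ± 0.06, and Myc rose by 0.63 ± 0.13. Of 14 inhibitors, 0 rose and 6 fell. Cdkn1a, the p21 inhibitor and a p53 target, fell by 0.88 ± 0.16, Btg2 by 0.56 ± 0.11 and Fzr1 by 0.26 ± 0.05. Of the 19 luminal markers 6 rose and 1 fell, and of the 18 skeletal muscle markers 3 fell, with a median of -1.57 over the list. Of 12 endothelial markers 1 rose and 6 fell, and of 12 white adipocyte markers 6 fell. The part of the last 2 lists in the members' values was not tested.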

How the data were processed

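Total RNA of mammary tissue was hybridised to 37 arrays. The authors deposited log2 values from RMA, made with oligo (per the submitters' processing notes), with versions not given in the sources used here. They held 35556 probe sets. No further normalisation was applied. The number of arrays limits the precision.

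Probe sets with 1 gene symbol in the platform annotation (21218 of 23099 listed) were used, with the highest mean over all arrays per gene. The members and gene lists were chosen with earlier results of these data known.

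A limma model (version 3.58.1 in R 4.3.3, lmFit and eBayes, 25 residual and 3.4 prior degrees of freedom) with 12 group means was fitted to the 13174 genes above the 30th percentile. Every adjusted p is Benjamini-Hochberg over these genes, and tests were two-sided. Each SE and p rests on a spread per gene pooled over the 12 groups, although week 12 spread wider than week 4. The fit was tested on simulated data. There the genes were independent and each had the same spread in all groups, while here members moved together and week 12 spread wider. The simulation thus cannot show how the fit behaves in these data. Named members were up to 6 per comparison with the smallest p, up to 2 per role group with the largest difference in the comparison with most members at an unadjusted p under 0.05, and 10 followed throughout, of which Ccnb1, Foxm1 and Ccne2 were not analysed here. Of the other cell cycle lists up to 3 per comparison were named. The text gives a part of these. Figures were drawn with matplotlib 3.10.9.

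Alternatives changed the filter, probe set choice, normalisation, eBayes options, array weights, block, arrays fitted and covariates, and left out arrays.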

Additional observations from a re-analysis of the deposited data

Results flagged for a closer look

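Only the members named in 30 cGy Si against sham at week 4 were screened here. They were picked for a small p or a large difference in that comparison. Their sign for 30 cGy Si at week 4 was thus partly fixed by the choice. The share over all genes was not computed. Among these members, the effect of an irradiation against sham had opposite signs in 2 weeks in every array of the irradiated group in 12 cases. This pattern alone was not tested, and none of these differences passed an adjusted p of 0.05 in limma. For 30 cGy Si, every array of week 4 lay above the sham mean of its week and every array of week 1 below it in 8 members. The effect at week 4 minus that at week 1 was 1.64 (log2) for Rrm2, 1.57 for Aurkb, 1.48 for Top2a, 1.39 for Mcm6, 1.36 for Bub1, 1.35 for Prc1, 0.93 for Mcm5 and 0.87 for Cdc20. The effects were 1.16 and -0.48 for Rrm2, 1.31 and -0.26 for Aurkb, and 1.15 and -0.33 for Top2a. With the sham mean of week 1 taken without replicate 3, a choice made after seeing the data, Cdc20 alone of these 8 members kept the pattern, with -0.28 at week 1. The week 1 effect was then 0.14 for Prc1, 0.07 for Aurkb, 0.13 for Bub1, 0.04 for Top2a and -0.26 for Rrm2.

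Between weeks 12 and 4, Kif11 showed it for 30 cGy Si, with -0.31 at week 12 and 0.91 at week 4, a difference of -1.22. For 10 cGy Si, Cenpm had 0.41 at week 4 and -0.42 at week 1, a difference of 0.84, and Cdk1 had 0.23 and -0.22, a difference of 0.45. For gamma, Cenpm had 0.32 and -0.08, a difference of 0.40. Without that sham array, the pattern was kept for Cenpm with 10 cGy Si, and lost for Cenpm with gamma and for Cdk1. The cases of week 4 and week 1 share the sham arrays of these weeks, and members move together, so the cases are not separate evidence.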

How the results depend on the processing

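No named member changed its sign under any alternative, over 54 named results. These members were picked for a small p or a large difference, and most of the same arrays were refitted. A kept sign was thus largely fixed by the choice. In the 19 comparisons with 0 members at an unadjusted p under 0.05, alternatives gave at most 5. The range without 1 array was 12 to 22 for the count of members at an unadjusted p under 0.05 in 30 cGy Si against sham at week 4, 3 to 9 against gamma, 5 to 18 against 10 cGy Si, 4 to 17 for week 4 minus week 1, and 1 to 22 for week 12 minus week 4. The median of the last ran from -1.09 to -0.47. Members called ran from 1 to 3 between weeks 4 and 1 and from 5 to 16 between weeks 12 and 1. Medians ran from -0.11 to 0.53 (sham weeks 12 and 1), -0.005 to 0.69 (sham weeks 12 and 4), -0.32 to 0.31 (gamma at week 12), -0.25 to 0.41 (10 cGy Si at week 12) and -0.55 to 0.10 (30 against 10 cGy Si at week 12). These are fits with fewer arrays.

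A filter at the 50th percentile kept 9 members, and the 5 counts were 5, 1, 4, 2 and 4. The shares over all genes, in either direction, were 8.19%, 8.07%, 2.83%, 9.18% and 4.82%. With this filter 1 member was called between weeks 4 and 1 and 2 between weeks 12 and 1. Array weights gave 21 against gamma, 26 against 10 cGy Si and 6 for week 4 minus week 1. The shares over all genes rose too, to 17.5%, 8.52% and 15.4% in either direction. In the main fit they were 7.99%, 3.51% and 8.56%. With array weights 6 and 18 members were called between weeks. The share of all genes called was not taken in any alternative or in the fits without 1 array. A change in the number of members called thus cannot be told apart from a change over all genes. Fitting only the arrays compared gave 24 against gamma (9.82% of all genes) and 19 for week 4 minus week 1 (7.39%). It gave 7 and 6 called between weeks. Between weeks 4 and 1, 1 member was called with no filter, with mean probe sets, with quantile normalisation and with the replicate block. Without the 2 arrays least like the rest, 4 were called there, and the counts were 2 and 8 for the differences between weeks. The shares over all genes, in either direction, were 9.48% and 5.03% for these differences. The median of the gamma effect at week 4 minus week 1 turned from 0.16 to -0.23 without these arrays. Beyond the fewer genes or arrays, the cause was not tested.

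Arrays with the same replicate number did not deviate together (median correlation 0.021 over 54 pairs, from -0.462 to 0.652), so the numbers were not taken to pair samples. With the replicate block the count at week 4 was 22 and the median 0.83, and 9 members were called between weeks 12 and 1. Groups of 3 or 4 arrays limit the precision, and differences of single members near their standard error were not detectable.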
